A study of Rattus norvegicus with 14 samples.

Results

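The genes described here encode the chains of collagens and laminins, measured in the rat choroid plexus (CP), the tissue that secretes cerebrospinal fluid into the brain ventricles. They were taken as every gene whose symbol is Col, digits, a and digits, or Lama, Lamb or Lamc and a digit. Of the 15154 genes named on the array 25 met this rule, 18 collagen and 7 laminin chains. The RefSeq gene table of the rat holds 55 such symbols, and the other chains carry no value here. RNA came from the CP of both lateral ventricles of Wistar rats that had been operated on at 2 months of age, 2 weeks before collection, and each array held 1 pool of RNA from 3 animals. The 4 groups were sham-operated females (3 pools), ovariectomized females (OVX, 3 pools), sham-operated males (4 pools) and orchidectomized males (OOX, 4 pools). Sham animals were the control within each sex, and no hormone replacement is given in the labels of any group.

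Collagens are built from chains wound into a triple helix. Fibrillar collagens such as types I and III form the fibres of connective tissue, which in CP lies in the stroma between the epithelium and its fenestrated capillaries. Collagen IV forms one network and laminins, each made of an alpha, a beta and a gamma chain, form another, and these networks are the main polymers of the basement membranes beneath the CP epithelium and around its vessels.

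Values are the log2 of the background-subtracted signal of a gene's brightest probe minus the median of its array, here called the level, so that 0 is the signal of the median probe. A level depends on the probe as well as on the RNA, and levels of different genes are therefore signals on the array and not amounts of RNA. Of the 25 genes 22 were well above background on all 14 arrays, and no gene was saturated on any array. The group mean lay above the array median for 18 genes in sham females, 18 in OVX females, 18 in OOX males and 16 in sham males. The remaining 3 were laminin chains. Among them Lamb3 was well above background on 7 arrays and Lama1 on 5, and neither was so on any sham female array.

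**Figure D1:**
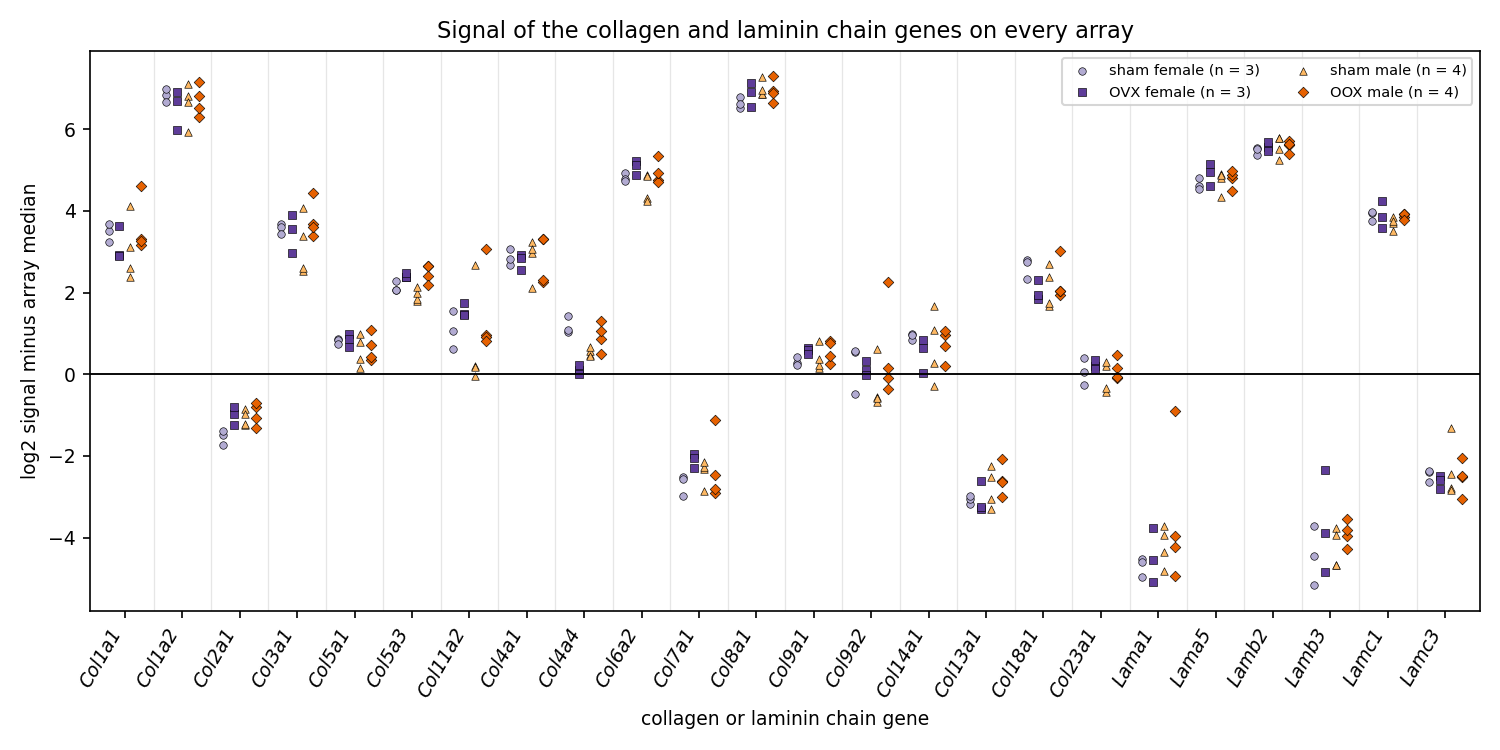
Level (log2 signal minus array median, vertical axis) of 24 of the 25 genes on each of the 14 arrays, with 1 point per array and the 4 groups side by side within a gene. Col8a1, Col1a2 and Lamb2 sit far above the array median in all groups, Lama1 and Lamb3 sit lowest, and Col11a2, Col9a2, Lama1 and Col7a1 each have 1 or 2 male arrays far from the rest.

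All 12 CP epithelial markers were well above background on every array, and 5 of them were saturated throughout. Their summed level lay between 11.01 and 11.68, a range that saturation limits from above. Markers of other cells were also present. Over the arrays the summed level ran from 1.89 to 6.42 for 12 neuron markers and from 7.73 to 9.07 for 11 measured fibroblast markers. Because of the saturation these ranges cannot be compared with that of the epithelial markers. OOX replicate 2 and sham male replicate 1 stood apart, with neuron markers summing to 5.30 and 6.42 against 1.89 to 4.17 on the other 6 male arrays. The male differences of the chains are therefore also given without both. The arrays lay on 5 slides. Of the 2 scan days the first covered all sham females and, of the other groups, OVX replicate 1 alone. A single slide held both female groups (sham replicate 3 and OVX replicate 1), and a single slide held both male groups (OOX replicate 4 and sham replicates 1 and 2).

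Ovariectomy was tested for a change in each chain. At an adjusted p-value under 0.05 (limma, with Benjamini-Hochberg adjustment across the 27517 genes and probes without a name) 1 chain was called, Col4a4 of the collagen IV network, which fell by 1.07 on the log2 scale. Over all genes 6.22% were called in that comparison, so that 1 of 25 was no larger a share than the background. At an unadjusted p-value under 0.05 there were 4 chains, Col4a4 and Col18a1 lower and Col2a1 and Col7a1 higher, against 19.9% of all genes. The median difference of the 25 chains was 0.04, with 15 chains higher and 10 lower, beside a median of -0.07 over all genes, of which 41.4% were higher.

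In males no chain was called, against 0.0858% of all genes. The smallest adjusted p-value, that of Col5a3, was 0.502 (limma), and Col5a3 alone had an unadjusted p-value under 0.05, against 6.88% of all genes. The median difference of the 25 chains was 0.17, with 22 higher in OOX and 3 lower, beside 0.02 over all genes, of which 53% were higher. Without OOX replicate 2 and sham male replicate 1 the median was 0.04 and 15 of the 25 chains were higher, since 8 chains turned from higher to lower and 1 from lower to higher. Over all male pools the marker medians were 0.48 for neuron (12 of 12 higher), 0.38 for fibroblast (10 of 11) and 0.38 for oligodendrocyte markers (7 of 7). They were 0.33 for astrocyte, 0.18 for mural, 0.15 for macrophage and -0.10 for endothelial markers. Of 12 CP epithelial markers 2 were higher, with a median of -0.30, and 6 were lower at an unadjusted p under 0.05 (limma). The part of these markers in the chain values was not tested. The labels do not say how animals were assigned to the pools, the study lists fewer animals per group than pools without shared animals would take, and the p-values measure only the spread between these pools, which may not be independent.

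**Figure D2:**
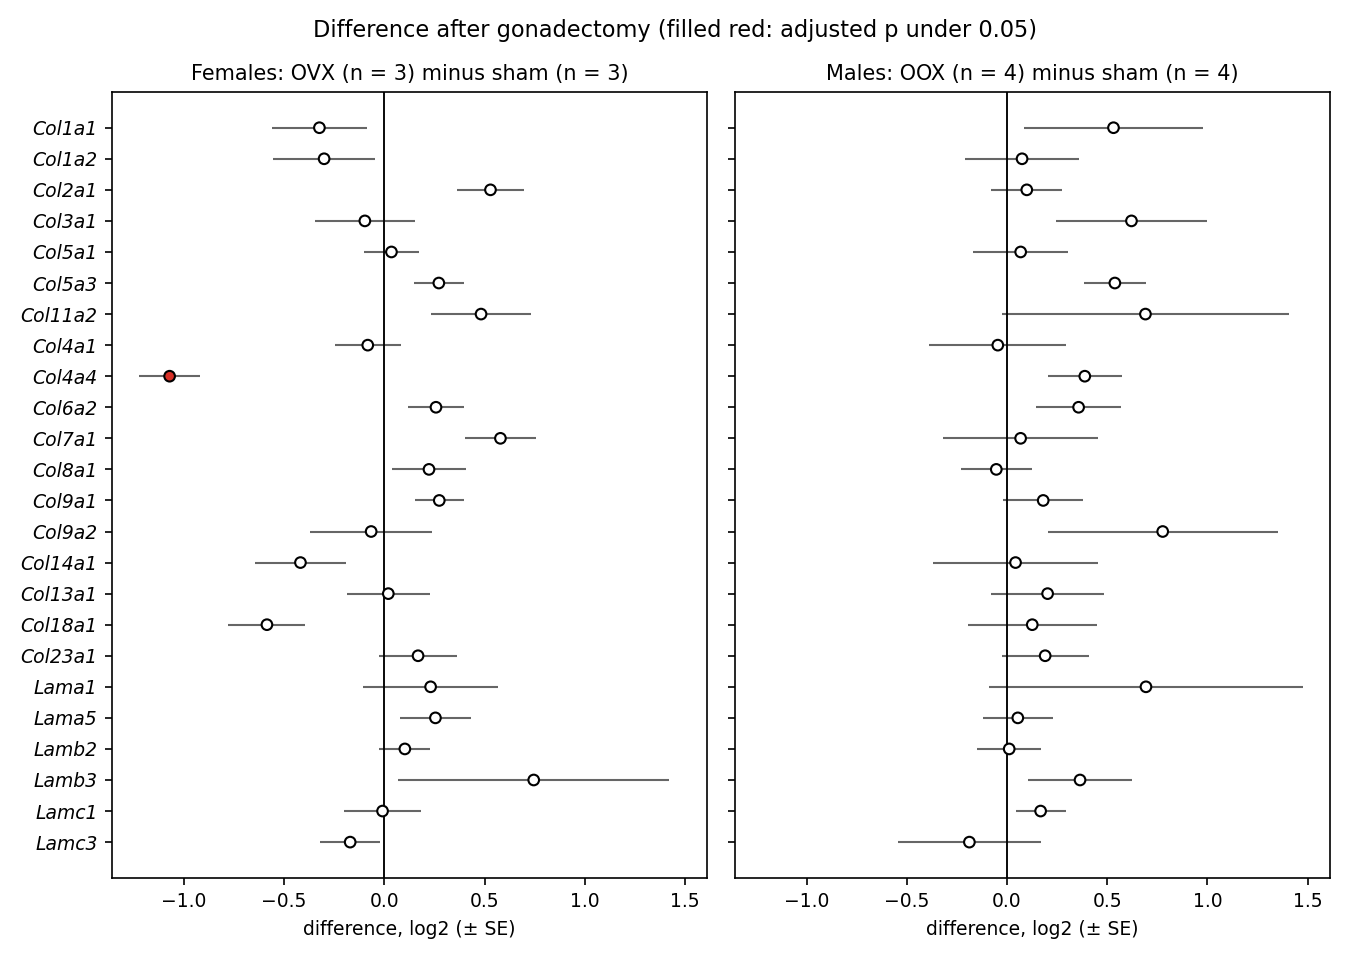
Difference between gonadectomized and sham animals (horizontal axis, log2, bars of 1 standard error) for 24 of the 25 chains, females at left and males at right. The single red point is Col4a4 in females at -1.07, and in males 21 of the 24 points lie to the right of 0, with wide errors for Col11a2, Col9a2 and Lama1.

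Col4a4 encodes a chain that, with those of Col4a3 and Col4a5, makes the collagen IV network of the mature glomerular basement membrane and of a few other basement membranes. Its level was 1.42, 1.03 and 1.09 in the sham female pools and 0.10, -0.0024 and 0.22 in the OVX pools. All OVX values lay below all sham values, as they did for 16.2% of all genes. The difference was -1.07 (SE 0.15, 2.10-fold lower in OVX, adjusted p = 0.0401 by limma). On the slide with both female groups the level was 0.10 for OVX and 1.09 for sham, with 1 pool on each side. With slide or scan day as a block the call was lost (adjusted p = 0.534 and 0.248 by limma), as it was when any pool other than sham female replicate 2 was left out (adjusted p from 0.0791 to 0.114). The difference itself stayed between -0.84 and -1.14 under every setting tried. In a pool of whole CP, fewer cells that express a gene and less RNA per cell cannot be told apart.

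In males the mean of Col4a4 differed in the opposite direction. The OOX pools measured 0.87, 0.49, 1.07 and 1.30 and the sham pools 0.48, 0.57, 0.46 and 0.67. The groups overlapped through OOX replicate 2 alone. The difference was 0.39 (SE 0.18, adjusted p = 0.668 by limma) and was 0.52 (SE 0.15, adjusted p = 0.439) without both male arrays that stand apart. Within the slide that held both male groups it was 0.78.

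The male difference of Col4a4 minus its female difference was 1.46 (SE 0.25, adjusted p = 0.0373 by limma over the 4 groups). Col4a4 was the 1 chain called in that test, against 0.251% of all genes. The call was lost with slide or scan day as a block (adjusted p = 0.751 and 0.187 by limma) and in 12 of 14 fits that each left out 1 pool (adjusted p from 0.0551 to 0.120), and it was kept without both male arrays that stand apart (adjusted p = 0.0129). By group mean the level ran from sham females (1.18 ± 0.21, SD, n = 3) over OOX males (0.93 ± 0.35, SD, n = 4) and sham males (0.54 ± 0.09, SD, n = 4) to OVX females (0.11 ± 0.11, SD, n = 3). Sham females and OOX males overlapped, as did OOX and sham males, whereas OVX females lay below every pool of the other groups. Sham females and sham males shared neither a slide nor a scan day, so that sex and array batch cannot be told apart in these levels.

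Col4a1 encodes a chain of the collagen IV present in nearly all basement membranes. It measured 3.06, 2.68 and 2.81 in sham females and 2.92, 2.55 and 2.84 in OVX females. The groups overlapped, and the difference was -0.08 (SE 0.17, adjusted p = 0.806 by limma). In males Col4a1 ran from 2.11 to 3.32, with a difference of -0.05 (SE 0.34) that was -0.46 (SE 0.30) without both male arrays that stand apart. A fainter probe of Col4a1 differed by 0.08 in females and 0.13 in males.

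**Figure D3:**
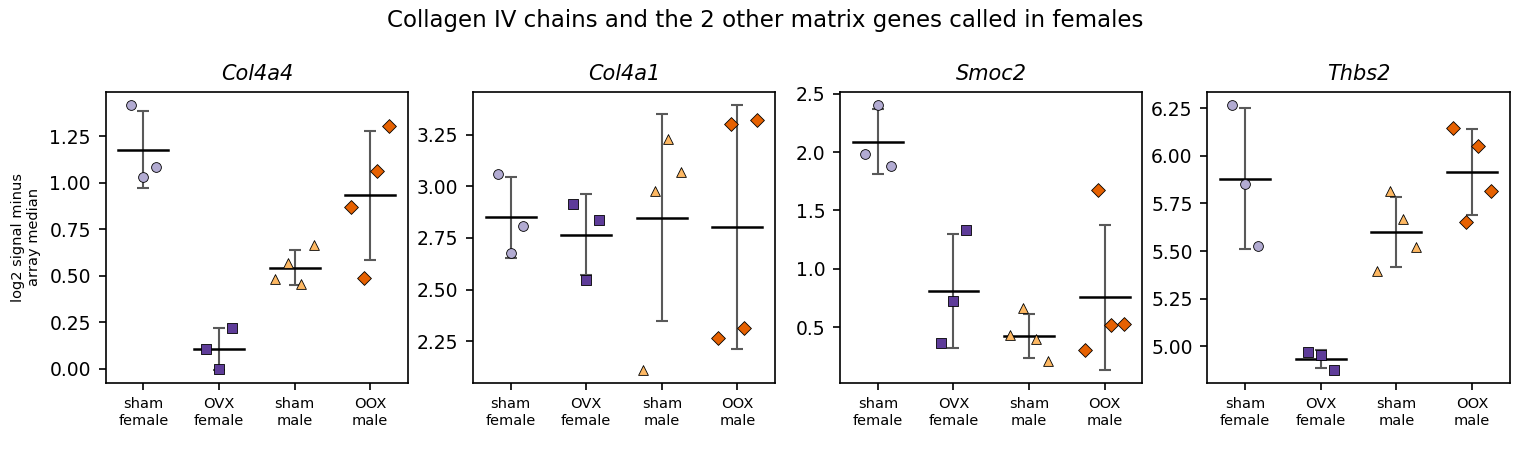
Level (log2 signal minus array median) of the collagen IV chains Col4a4 and Col4a1 and of the matrix genes Smoc2 and Thbs2 on each array, with a line at the group mean and bars of 1 SD. In Col4a4, Smoc2 and Thbs2 the 3 OVX pools lie below the 3 sham female pools, whereas in Col4a1 these groups overlap.

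Collagen IV genes lie in pairs that are transcribed away from each other. In the rat assembly GRCr8 the starts of Col4a4 (minus strand) and Col4a3 (plus strand) were 412 bases apart on chromosome 9, and those of Col4a1 (plus strand) and Col4a2 (minus strand) 76 bases apart on chromosome 16. Neither Col4a3 nor Col4a2 has a value here. The sequence upstream of Col4a4, the chain that was called, is given with the stretch between Col4a1 and Col4a2, with that upstream of Col5a3, the chain with the smallest p-value in males, and with that upstream of Col1a2, a fibrillar chain with a TATA box. Each runs 5′ to 3′ on the strand of the named gene and ends at the base before its start. The windows are chr9:91323578-91323827 for Col4a4, chr16:84885521-84885596 for Col4a1, chr8:27625949-27626198 on the minus strand for Col5a3 and chr4:33518307-33518556 on the plus strand for Col1a2. Capitals mark matches on either strand to the GC box, whose letters are GGGCGG, to the TATA box, searched as TATAAA, to the box that is named for its letters, CCAAT, to a nuclear receptor core motif, given by AGGTCA, or to an androgen and glucocorticoid receptor core motif, given by TGTTCT.
Col4a4: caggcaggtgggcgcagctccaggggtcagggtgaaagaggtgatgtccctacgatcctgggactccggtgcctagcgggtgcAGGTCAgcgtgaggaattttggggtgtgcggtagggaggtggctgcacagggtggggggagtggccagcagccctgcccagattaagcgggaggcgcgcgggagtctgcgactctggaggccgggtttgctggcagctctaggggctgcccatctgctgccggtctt
Col4a1: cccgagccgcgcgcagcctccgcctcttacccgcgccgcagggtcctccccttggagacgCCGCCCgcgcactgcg
Col5a3: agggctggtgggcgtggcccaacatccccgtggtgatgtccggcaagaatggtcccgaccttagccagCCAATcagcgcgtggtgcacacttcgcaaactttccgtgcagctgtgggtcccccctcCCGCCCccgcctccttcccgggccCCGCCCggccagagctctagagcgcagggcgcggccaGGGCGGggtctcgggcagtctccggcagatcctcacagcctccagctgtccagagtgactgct
Col1a2: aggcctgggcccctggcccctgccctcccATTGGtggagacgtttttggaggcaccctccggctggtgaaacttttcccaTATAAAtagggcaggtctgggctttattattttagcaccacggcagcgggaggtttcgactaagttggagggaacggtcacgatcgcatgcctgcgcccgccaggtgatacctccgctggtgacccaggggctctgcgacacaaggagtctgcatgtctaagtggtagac

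RefSeq windows of 250 bases upstream of the start were held for 18 of the 25 chains and numbered 33469 in all. AGGTCA was present upstream of Col4a4 and Col7a1 and in 14.1% of all windows. TGTTCT was present upstream of Col11a2, Col5a1, Col9a1 and Lamc3 and in 17.5% of all windows. Neither the full oestrogen response element, an inverted repeat of AGGTCA with 3 bases between and found in 0.00896% of all windows, nor the full androgen response element, an inverted repeat ending in TGTTCT with 3 bases between and found in 0.0120%, was present upstream of any of the 18 chains. GGGCGG was present upstream of 11 of the 18 against 30.5% of all windows, and the median GC content of the 18 windows was 62.4% against 51.2% over all. TATAAA was present upstream of Col1a2 and Col13a1 against 12.9% of all windows, and CCAAT upstream of 4 chains against 34.0%. Col4a1 is 1 of these 4, and its CCAAT match lay outside the shorter stretch printed above, beyond the start of Col4a2. Such matches describe letters in a window and not sites at which a receptor was measured.

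Col18a1 encodes a basement membrane collagen whose C-terminal fragment is endostatin. It measured 2.78, 2.74 and 2.32 in sham females and 2.30, 1.85 and 1.94 in OVX females. The groups did not overlap, but on the slide that held both the difference was -0.02. Over all pools it was -0.59 (SE 0.19, adjusted p = 0.133 by limma) and was not called. In males Col18a1 measured 1.93, 3.02, 2.03 and 2.03 in OOX and 1.66, 1.75, 2.71 and 2.39 in sham pools, with a difference of 0.13 (SE 0.32). The sign turned without both male arrays that stand apart, where the difference was -0.29 (SE 0.25). The male difference minus the female difference was 0.71 (SE 0.43, adjusted p = 0.586 by limma).

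Col2a1 and Col7a1 were higher in OVX females without being called. Col2a1, the chain of the main collagen of cartilage, measured -1.72, -1.48 and -1.39 in sham females and -1.24, -0.96 and -0.80 in OVX females. Its groups did not overlap, as in 11.5% of all genes in this direction, and the difference was 0.53 (SE 0.17, adjusted p = 0.121 by limma) and 0.15 within the slide. In males Col2a1 differed by 0.10 (SE 0.18) and by 0.29 (SE 0.15) without both arrays that stand apart, and the male minus the female difference was -0.43 (SE 0.25, adjusted p = 0.559). Col7a1, the chain of the anchoring fibrils of skin, measured -2.50, -2.56 and -2.98 in sham females and -1.96, -2.29 and -2.05 in OVX females. The groups did not overlap, and the difference was 0.58 (SE 0.18, adjusted p = 0.112 by limma). Within the slide it was 1.02, and under every setting tried it lay between 0.15 and 1.02.

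The remaining chains with groups that did not overlap in females were Col5a3 and Col9a1, both with smaller differences. Col9a1, a chain of the collagen IX that coats collagen II fibrils, measured 0.27, 0.23 and 0.43 in sham and 0.65, 0.60 and 0.49 in OVX females, a difference of 0.27 (SE 0.12, adjusted p = 0.259 by limma). A fainter probe of this gene, well above background on all 14 arrays, differed by -0.10, so that these probes disagreed in sign, and another was well above background on 4 arrays alone. In all, 6 of 25 chains did not overlap between the female groups, 4 higher and 2 lower, against 27.7% of all genes.

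Among fibrillar chains 7 of 11 listed were measured, and none was called in either sex. In females 4 of the 7 were higher and their median difference was 0.04. In males all 7 were higher, with a median of 0.53, and without both arrays that stand apart 5 of the 7 were, with a median of 0.20. Col5a3, a chain of the collagen V that regulates fibril diameter, was the one with the smallest p-value. Its OOX pools measured 2.65, 2.42, 2.65 and 2.19 and its sham pools 1.79, 1.84, 1.99 and 2.13, so that the groups did not overlap, as in 4.01% of all genes and, in this direction, 2.44%. The difference was 0.54 (SE 0.15, unadjusted p = 0.00733, adjusted p = 0.502 by limma), it was 0.51 (SE 0.17) without both male arrays that stand apart, and it was 0.37 within the slide. In females Col5a3 measured 2.07, 2.07 and 2.27 in sham and 2.37, 2.38 and 2.48 in OVX pools, a difference of 0.27 (SE 0.12, adjusted p = 0.262 by limma).

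Col3a1 and Col1a1, the collagen III and collagen I chains of stromal fibres, differed widely between male pools of the same group. Col3a1 measured 3.38, 4.43, 3.69 and 3.60 in OOX and 2.53, 2.61, 4.08 and 3.40 in sham males. Its difference was 0.62 (SE 0.38, adjusted p = 0.784 by limma), 0.20 (SE 0.36) without both male arrays that stand apart and 0.93 (SE 0.31) without sham male replicate 3. Col1a1 measured 3.32, 4.60, 3.16 and 3.26 in OOX and 2.59, 2.39, 4.11 and 3.11 in sham males, a difference of 0.53 (SE 0.44, adjusted p = 0.898 by limma) that was 0.04 (SE 0.42) without both arrays. OOX replicate 2 and sham male replicate 3 were the highest pools of their groups for both genes. In females Col1a1 measured 3.51, 3.67 and 3.24 in sham and 3.63, 2.92 and 2.91 in OVX pools, a difference of -0.32 (SE 0.24), with a fainter probe at 0.11. The male minus the female difference of Col1a1 was 0.86 (SE 0.59, adjusted p = 0.665 by limma).

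Of 11 measured fibroblast markers 7 were highest of the sham male pools on sham male replicate 3 and 2 were lowest, and on OOX replicate 2 these counts were 6 and 2 of the OOX pools. Dcn, Lum and Mgp, which encode decorin, lumican and matrix Gla protein, were among those highest on sham male replicate 3, where they measured 6.32, 1.49 and 8.00, against highest values of 4.34, -1.28 and 7.28 on the other sham male pools. On OOX replicate 2 Lum measured 0.82, the highest of the OOX pools, whereas Dcn at 5.31 and Mgp at 7.50 were below OOX replicate 3. Pdgfra, a growth factor receptor of fibroblasts, was the lowest of its group on both arrays, at 5.56 on sham male replicate 3 and 5.49 on OOX replicate 2. The summed level of the fibroblast markers was 9.07 on sham male replicate 3 and 7.73 to 8.45 on the other sham male pools, and it was 8.52 on OOX replicate 2 and 8.19 to 8.82 on the other OOX pools. Their part in the collagen values was not tested.

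**Figure D4:**
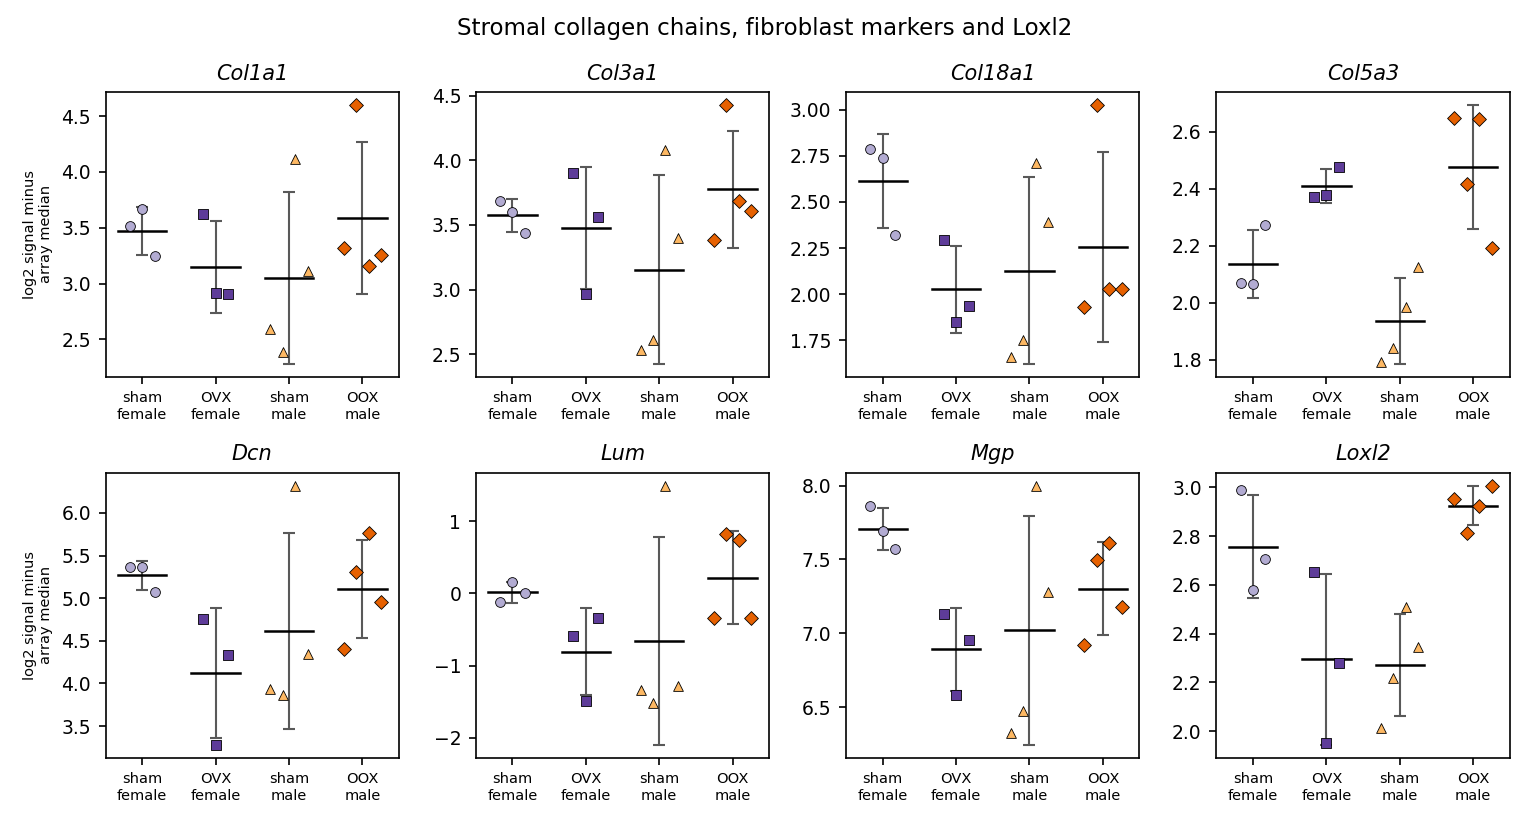
Level (log2 signal minus array median) of Col1a1, Col3a1, Col18a1 and Col5a3, of the fibroblast markers Dcn, Lum and Mgp and of the collagen cross-linking enzyme gene Loxl2 on each array, with a line at the group mean and bars of 1 SD. Sham male replicate 3 is the highest sham male pool for Col1a1, Col3a1, Col18a1, Dcn, Lum and Mgp, and for Col5a3 and Loxl2 all OOX pools lie above all sham male pools.

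Col1a2, the second chain of collagen I, gave one of the strongest signals of the family. It measured 6.84, 6.97 and 6.67 in sham and 6.92, 5.99 and 6.68 in OVX females, and 6.30, 7.16, 6.52 and 6.80 in OOX and 5.92, 6.81, 7.10 and 6.66 in sham males. The groups overlapped in both sexes, with differences of -0.30 (SE 0.25) and 0.08 (SE 0.28). Without both male arrays that stand apart the male difference turned to -0.31 (SE 0.19). Col5a1 lay between 0.15 and 1.07 on all arrays, with differences of 0.04 (SE 0.14) in females and 0.07 (SE 0.24) in males, the latter turning to -0.22 (SE 0.20) without both arrays.

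Col11a2, a chain of the collagen XI of cartilage, was the fibrillar chain with the widest spread. The OOX pools measured 0.96, 3.05, 0.92 and 0.80 and the sham male pools 2.67, -0.05, 0.19 and 0.17. OOX replicate 2 and sham male replicate 1 thus lay far above the rest of their groups, whose other pools were close together. The difference was 0.69 (SE 0.71, adjusted p = 0.936 by limma) over all pools and 0.79 (SE 0.13, unadjusted p = 0.000736, adjusted p = 0.293 by limma) without both arrays. It was 0.15 (SE 0.64) without OOX replicate 2 alone and 1.33 (SE 0.54) without sham male replicate 1 alone. The fit without both was added after seeing the data, and its SE and p-value measure only the spread of the pools that remained. In females Col11a2 measured 0.61, 1.07 and 1.55 in sham and 1.48, 1.46 and 1.74 in OVX pools, a difference of 0.48 (SE 0.25, adjusted p = 0.322 by limma). Its fainter probe differed by 0.35 in females and 0.30 in males.

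Col9a2 showed the same pair of arrays. It measured -0.36, 2.25, -0.09 and 0.14 in OOX and 0.62, -0.68, -0.55 and -0.57 in sham males. The difference was 0.78 (SE 0.57, adjusted p = 0.863 by limma) and was 0.49 (SE 0.16, adjusted p = 0.465) without both arrays, and 0.19 (SE 0.33) without OOX replicate 2 alone. In females it ran from -0.49 to 0.56 with a difference of -0.07 (SE 0.31). OOX replicate 2 was also the highest OOX pool for Lama1, at -0.91 against -4.93 to -3.96, and for Col7a1, at -1.13 against -2.91 to -2.46. Without both arrays the male difference of Lama1 was -0.0078 (SE 0.32) in place of 0.69 (SE 0.78), and that of Col7a1 was -0.48 (SE 0.16, adjusted p = 0.465 by limma) in place of 0.07 (SE 0.38).

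Markers of brain tissue were high on the same arrays. Snap25, of synaptic terminals, measured 3.52 on OOX replicate 2 and 4.16 on sham male replicate 1, against -0.44 to 2.40 on the other male arrays. Gfap, of astrocytes, measured 1.65 and 0.83 against -1.16 to -0.74. Aldh1a2, a retinoic acid synthesis gene of the fibroblast list, was high on OOX replicate 2 alone, at 2.46 against -2.34 to -0.97 on the other male arrays. In sham females Snap25 measured 1.14, 3.88 and 3.62 and Col11a2, on the same arrays, 0.61, 1.07 and 1.55. The part of these markers in the collagen and laminin values was not tested.

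**Figure D5:**
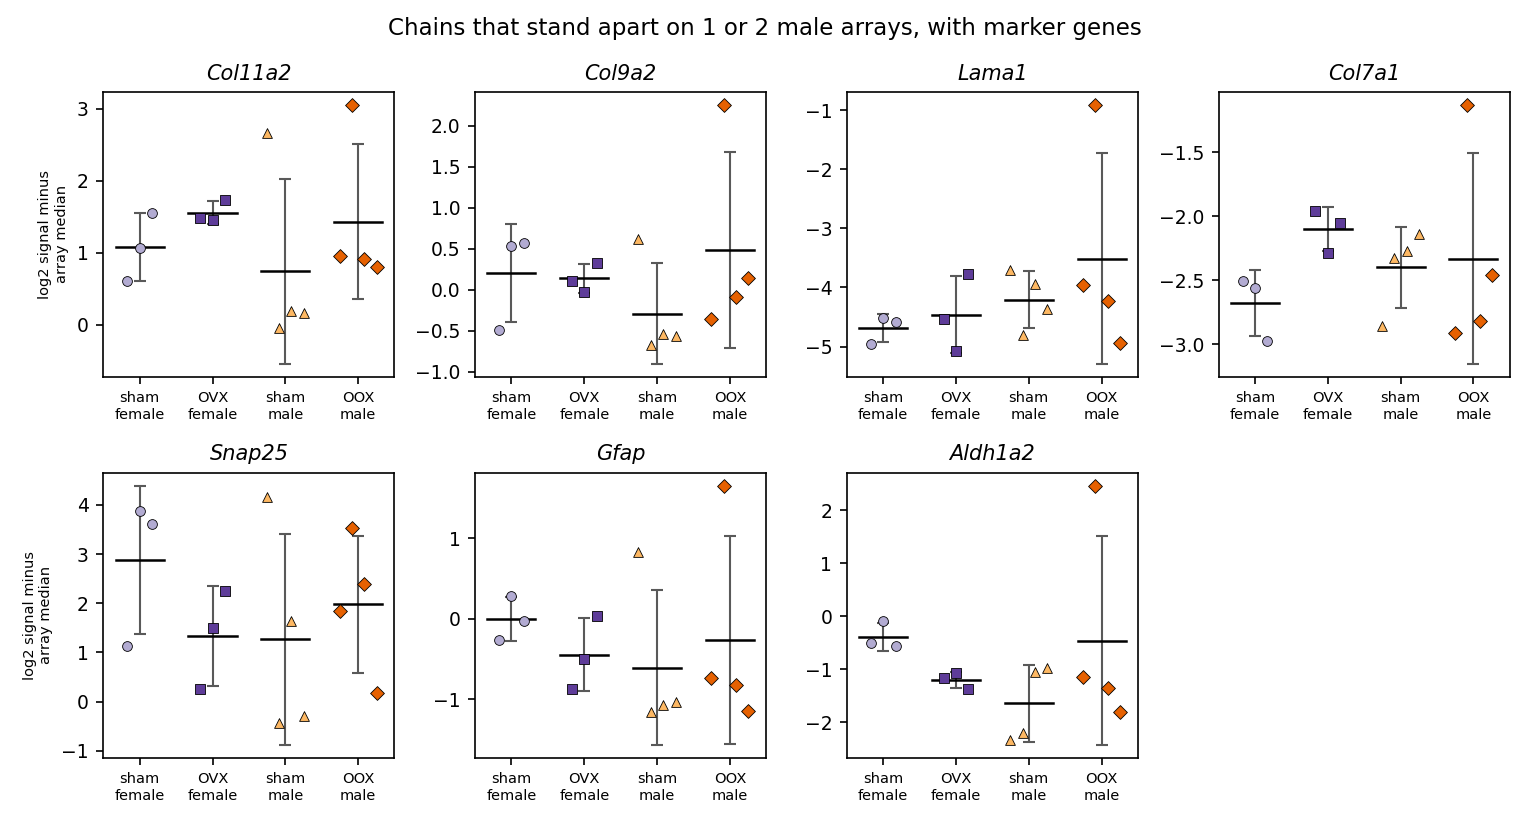
Level (log2 signal minus array median) of Col11a2, Col9a2, Lama1 and Col7a1 (top) and of the marker genes Snap25, Gfap and Aldh1a2 (bottom) on each array, with a line at the group mean and bars of 1 SD. OOX replicate 2 lies above the other OOX pools in all 7 panels, and sham male replicate 1 above the other sham male pools for Col11a2, Col9a2, Lama1, Snap25 and Gfap.

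Col8a1, a short-chain collagen of the matrix around vessels and epithelia, gave strong signals in all groups. It measured 6.77, 6.53 and 6.61 in sham and 6.90, 7.14 and 6.54 in OVX females, and 7.29, 6.63, 6.92 and 6.90 in OOX and 6.86, 7.27, 6.86 and 6.96 in sham males. The differences were 0.22 (SE 0.18, adjusted p = 0.531 by limma) in females and -0.05 (SE 0.18, adjusted p = 0.969) in males, the latter being 0.0043 (SE 0.18) without both arrays that stand apart. Col6a2, a chain of the beaded filaments of collagen VI, measured 4.93, 4.79 and 4.72 in sham and 5.22, 5.12 and 4.88 in OVX females, a difference of 0.26 (SE 0.14, adjusted p = 0.346 by limma). In males it measured 4.76, 5.34, 4.71 and 4.92 in OOX and 4.32, 4.25, 4.87 and 4.86 in sham pools, a difference of 0.36 (SE 0.21, adjusted p = 0.779) that was 0.14 (SE 0.20) without both male arrays that stand apart.

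Of the laminin chains Lamb2 and Lama5 gave the strongest signals, and with Lamc1 they are the chains of laminin-521, a laminin of mature basement membranes. Lamb2 measured 5.54, 5.36 and 5.51 in sham and 5.56, 5.69 and 5.46 in OVX females, and 5.62, 5.40, 5.70 and 5.63 in OOX and 5.24, 5.78, 5.78 and 5.50 in sham males. Its differences were 0.10 (SE 0.13) and 0.01 (SE 0.16), the male one being -0.04 (SE 0.13) without both arrays. Lama5 measured 4.81, 4.60 and 4.54 in sham and 4.95, 5.16 and 4.62 in OVX females, and 4.81, 4.49, 4.87 and 4.97 in OOX and 4.34, 4.90, 4.81 and 4.87 in sham males. Its differences were 0.25 (SE 0.18) and 0.05 (SE 0.17), the male one being 0.02 (SE 0.11) without both arrays. Lamc1 ran from 3.51 to 4.23 over all arrays, with differences of -0.01 (SE 0.19) in females and 0.17 (SE 0.12) in males, or 0.09 (SE 0.11) without both arrays. On the brightest probes the groups of these 3 chains overlapped in both sexes. None of the 7 laminin chains had an unadjusted p-value under 0.05 in either sex. A fainter probe of Lamc1, well above background on all 14 arrays, differed by 0.02 in females and -0.38 in males. On it the OOX pools measured 0.26, 0.27, 0.26 and 0.24 and the sham male pools 0.40, 0.94, 0.77 and 0.45. The male groups thus did not overlap on this probe, and the probes of Lamc1 disagreed in sign.

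Lamc3, a laminin gamma chain, lay below the array median on every array, between -3.06 and -1.32, with differences of -0.17 (SE 0.15) in females and -0.19 (SE 0.36) in males, or -0.49 (SE 0.41) without both arrays. Lamb3 and Lama1 lay between -5.16 and -0.91. Of the chains not yet described, Col13a1, Col14a1 and Col23a1 had differences of 0.02, -0.42 and 0.17 in females and 0.20, 0.04 and 0.19 in males, and none was called (lowest adjusted p = 0.342 by limma). Without both arrays their male differences were -0.14, -0.36 and 0.05. Fainter probes of Col23a1 and Col14a1 were well above background on all 14 arrays. That of Col23a1 differed by 0.43 in females and 0.0081 in males. Its female groups did not overlap, at -1.38, -1.24 and -1.30 in sham and -0.92, -0.91 and -0.80 in OVX pools. That of Col14a1 differed by -0.23 in females and -0.26 in males, so that its probes disagreed in sign in males. Col14a1, which binds fibrils of collagen I, measured 0.98, 0.83 and 0.95 in sham and 0.85, 0.02 and 0.65 in OVX females.

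Of 55 measured genes that process, bind or surround these chains 2 were called in females (3.64%, against 6.22% of all genes) and 0 in males. Of 24 measured genes of collagen processing, 23 of them well above background on every array, none was called in either sex, with medians of 0.04 in females and 0.01 in males. Loxl2, a lysyl oxidase that cross-links collagen, had the smallest p-value of this list in males. It measured 2.95, 2.81, 2.92 and 3.01 in OOX and 2.01, 2.22, 2.51 and 2.35 in sham males, groups that did not overlap, and the difference was 0.65 (SE 0.14, adjusted p = 0.321 by limma). Pcolce, the enhancer of procollagen C-proteinase, differed by -0.51 (SE 0.19, adjusted p = 0.183 by limma) in females. Of 10 measured collagen and laminin receptors none was called, and Itgb4, the integrin chain of hemidesmosomes, differed by -0.46 (SE 0.12, adjusted p = 0.0719 by limma) in females.

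Of 7 other basement membrane genes measured, 1 was called. Smoc2, a calcium-binding matrix protein, measured 1.99, 2.40 and 1.88 in sham and 0.37, 0.73 and 1.33 in OVX females, groups that did not overlap, and it fell by 1.28 (SE 0.28, adjusted p = 0.0470 by limma). Of 14 other interstitial matrix genes measured, 1 was called. Thbs2, an inhibitor of angiogenesis, measured 6.26, 5.85 and 5.53 in sham and 4.97, 4.96 and 4.88 in OVX females, and it fell by 0.95 (SE 0.20, adjusted p = 0.0456 by limma). Both calls were lost when any 1 pool was left out. On the slide with both female groups Smoc2 differed by -1.51 and Thbs2 by -0.56, with 1 pool on each side. In males Smoc2 differed by 0.33 (SE 0.29) and Thbs2 by 0.31 (SE 0.16), neither called, and the male minus the female difference was 1.61 (SE 0.44, adjusted p = 0.207 by limma) for Smoc2 and 1.26 (SE 0.25, adjusted p = 0.0828) for Thbs2.

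Cell type markers that moved between the female groups are given beside Col4a4. Of 11 fibroblast markers 9 were lower in OVX, with a median of -0.61, and Aldh1a2 (-0.82, SE 0.18, adjusted p = 0.0459 by limma) and Mgp (-0.82, SE 0.18, adjusted p = 0.0489) were called, although both calls were lost when any 1 pool was left out (adjusted p from 0.0771 to 0.125 for Aldh1a2 and from 0.0791 to 0.137 for Mgp, by limma). On the slide with both female groups Aldh1a2 differed by -0.60 and Mgp by -0.44. Of 12 neuron markers 11 were lower, with a median of -0.99. The medians were 0.02 for 10 endothelial markers, 0.05 for 11 mural markers, 0.03 for 10 macrophage markers, -0.08 for 7 oligodendrocyte markers, -0.20 for 12 CP epithelial markers and -0.44 for 8 astrocyte markers, with none called in these 6 lists. The summed level of fibroblast markers was 8.57 to 8.81 in sham females and 7.80 to 8.57 in OVX females, and that of neuron markers 3.16 to 5.62 and 2.58 to 4.36. Their part in the difference of Col4a4 was not tested. No gene of these lists was called in males or in the test between the sexes. In that test the medians were 1.68 for neuron (11 of 12 above 0), 0.90 for fibroblast (9 of 11) and 0.60 for astrocyte markers (7 of 8). They were 0.47 for oligodendrocyte, 0.24 for mural, 0.12 for macrophage, -0.05 for endothelial and -0.09 for CP epithelial markers, beside 0.07 over all genes. The part of these lists in the difference of Col4a4 between the sexes was not tested.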

How the data were processed

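RNA pools of 3 animals (200 ng) were labelled with Cy3 and hybridized singly to 14 Agilent arrays. The authors deposited scanner files whose intensity values Agilent Feature Extraction 10.5.1.1 (protocol GE1_105_Dec08) had background-subtracted, and a value table of log2 values that the authors had made with BRB-ArrayTools 3.8.1 and centred on the median. Per array its columns differed from the log2 intensity by a single constant (-0.44 to 0.30, 99.4% to 99.6% of probes within 0.01, column medians 7.59 to 7.88); direction and scale were thus known, and the table served as an alternative.

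From the scanner files, control spots and outlier spots (222 to 877 per array) were left out, saturated spots (425 to 851) were kept, and replicate spots were combined by their mean. The log2 signal minus the array median over 30367 rat probes was used. Of these, 18004 probes took names of 15154 genes through accessions in a RefSeq table of GRCr8, used for names and for upstream sequences, since the array was annotated on rn4, and 12363 stayed unnamed. The brightest probe stood for a gene (9 of the 25 chains had several of their 35 probes). Between 79.7% and 87.2% of spots were well above background, and the number of arrays limits the precision. This share was 79.7% to 82.7% in sham females and 85.3% to 87.2% in OVX females, without overlap. It was 80.3% to 85.7% in sham males and 83.5% to 86.5% in OOX males. Its part in the values of dim chains such as Col2a1 and Col7a1 was not tested. The correlation between arrays of a group, across genes, was 0.979 to 0.992.

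Groups were compared within a sex with limma 3.58.1 in R 4.3.3 (lmFit, eBayes, no covariate, Benjamini-Hochberg across the 27517 genes and probes without a name, called under 0.05), and between the sexes as the male minus the female difference over all arrays. The fits were tested on simulated data. The methods name 3 pools per group, whereas the labels give 4 arrays per male group, and none was dropped. Alternatives were the 75th percentile as the array centre, quantile normalization, normexp with an offset of 50 (on the median spot signal, as the mean signal that had been planned was not in the files), dim probes filtered out, outlier spots retained, 1 fit for all groups, replicate number, slide or scan day as a block, array weights, the methods' t-test, the value table, the mean over probes and each pool left out; values within a slide and fits without OOX replicate 2 and sham male replicate 1 were added after seeing the data.

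Members and gene lists were chosen with earlier results of these data known. Chains were picked for values on every array by an adjusted p under 0.05, as the 5 with the smallest p in each sex, as the 5 with the strongest signal or as the 4 with the smallest p between the sexes. Of the other lists, genes that were called or else among the 2 with the smallest p were picked. Chains picked in 1 sex were given on every array of that sex, and in the other sex some have a range or a difference alone or no value. Col2a1, also picked between the sexes, has differences alone in males. Of the other lists some picked genes, among them Pcolce, Itgb4, Aldh1a2 and Mgp, have a difference or values on some arrays alone, and others are not given. Col4a1, Col11a2, Col14a1, Dcn, Lum, Snap25 and Gfap were chosen after their values were seen. Python 3.11.15 with numpy 2.4.6, pandas 2.3.3 and matplotlib 3.10.9 made the tables and plots. The separate values of 1 chain and of some marker genes are not reported here; counts and medians include them.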

Additional observations from a re-analysis of the deposited data

Results flagged for a closer look

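The 50 male groups of 4 pools, 2 for each chain, were searched for 1 pool apart from the rest. In 6 groups the gap of that pool to the nearest other was above Dixon's critical share of the group's range. Chance gives this in about 1 of 20 groups, but these groups share the same arrays and are not independent. The share of all genes with such a pool was not counted, so 6 of 50 cannot be read as particular to the chains. OOX replicate 2 was the high pool for Col11a2 (3.05), Col18a1 (3.02) and Col1a1 (4.60). Sham male replicate 1 was the high pool for Col11a2 (2.67) and Col9a2 (0.62) and the low pool for Lama5 (4.34). These are the arrays on which Snap25 and Gfap were also highest among the males. The part of those markers in the chain values was not tested. Groups of 3 were not examined in this way.

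For Col4a4 the difference after gonadectomy passed the test between the 2 sexes with all pools and no block: the male minus the female difference was 1.46, with OVX lower than sham in females and no call in males. The adjusted p-value was 0.0373 (limma) and was 0.0657, 0.751 and 0.187 with replicate number, slide or scan day as a block, and the call was lost in 12 of 14 fits that each left out 1 pool.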

How the results depend on the processing

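In females 1 chain, Col4a4, was called in the main analysis and under 9 of 13 alternatives, and 0 were called with a replicate block, slide as a block, scan day as a block and the methods' t-test after Benjamini-Hochberg. When each pool was left out in turn the count ran from 0 to 1, and it was 1 without sham female replicate 2. At the methods' own thresholds 2 of 25 chains passed, Col4a4 and Col18a1, both lower. Of all 15154 genes 651 passed as higher and 1029 as lower, so that the chains were no larger a share than the background. In males 0 chains were called under all alternatives, with 1 pool left out and without both arrays that stand apart, and an unadjusted p under 0.05 was reached by 1 to 5 chains. The count of 1 in the main analysis stood beside 1042 of all 15154 genes. The count of 5, without both arrays that stand apart, stood beside 1398. Between the sexes the count of 1 fell to 0 with a replicate block, slide as a block and scan day as a block, and ran from 0 to 1 with each pool left out. The median difference of the chains stayed above 0 in females (0.0042 to 0.15) and in males (0.04 to 0.32), and between the sexes, where it was 0.11, it was -0.03 with array weights and -0.11 without OOX replicate 2 and sham male replicate 1. With arrays scaled to the 75th percentile 8 chains lay above that level in sham females, 8 in OVX females, 8 in OOX males and 7 in sham males. All male arrays were scanned on 1 day, so no fit with scan day as a block was run for males.

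Whether replicate numbers pair the samples could not be settled with so few pools. Deviations of same-numbered arrays correlated at 0.14, -0.02 and 0.10 in females and at -0.09, -0.31, -0.01 and 0.14 in males. Those of arrays with different numbers correlated at -0.14 to 0.06 in females and at -0.30 to 0.42 in males. With the replicate block the adjusted p of Col4a4 was 0.0734 in females and 0.0657 between the sexes, and calls over all genes went from 942 to 0 in females (3157 at an unadjusted p under 0.05), from 13 to 8 in males and from 38 to 15 between the sexes. Over all genes the 942 female calls became 64 with quantile normalization, 110 with normexp, 188 with the dim-probe filter, 229 in 1 fit of all groups, 0 and 14 when slide or scan day was the block, 3 with the methods' t-test, and 2 to 950 with a pool left out; scaling to the 75th percentile gave 383 higher and 647 lower in place of 275 and 667. The 13 male calls became 0 with normexp, in 1 fit of all groups, by the methods' t-test and without OOX replicate 2 and sham male replicate 1, and 35 with array weights, and ran from 6 to 12 with a pool left out. The 38 calls between the sexes ran from 10 with slide as a block to 189 with array weights, and from 19 to 49 with a pool left out. Apart from the block itself, why these counts moved was not tested. Lama1 and Lamb3 were near background, which limits what can be said of them.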
